A study of Equus caballus with 4 samples.

Results

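The IL-1 and IL-18 family was examined in horse muscle stem cells, termed equine satellite cells (ESC), as a group of 10 genes that covers ligands, a natural antagonist and receptors. The genes were chosen by symbol, and every probe that carried the symbol of a member in the scanner files was taken, whatever its values. In this way 27 of the 43603 probes on the array were found, for 9 of the 10 genes. They comprised *IL1A* (3 probes), *IL1B* (4), *IL18* (1), *IL33* (3), *IL1RN* (10), *IL1R1* (1), *IL1RAP* (3), *IL1RL1* (1) and *IL18R1* (1). No probe carried the symbol *IL1R2*, although 1 probe named IL-1RII, a synonym that RefSeq lists for *IL1R2*, was on the array and is described apart from the 27.

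The cells came from *m. semitendinosus* and were in culture on day 3 of differentiation. In the HMB-treated group, 50 µM HMB (β-hydroxy-β-methylbutyrate, a metabolite of leucine) was present for 24 h and 3 mM H2O2 for the last 1 h. The control group was exposed to H2O2 as well, without HMB, so the ratio describes HMB in cells that had all met H2O2. The study's methods give stallions aged 6 months as donors and state that the culture with the best viability and fusion was chosen, so the 4 replicates need not be 4 horses. Each of the 4 arrays carried cRNA of HMB-treated cells in the Cy5 channel and control cRNA in the Cy3 channel, with no dye swap, so treatment and dye cannot be told apart. The labels give the control the replicate number 1 on every array, whereas the design speaks of 4 control replicates. If a single control RNA served all arrays, these errors hold no control spread, and in either case the p-values measure only the spread between these samples, which may be technical.

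Ligands of the IL-1 family are alarm cytokines. IL-1α and IL-33 are stored in the nucleus of stromal and epithelial cells and act when cells are damaged, while IL-1β and IL-18 are made as precursors that inflammatory caspases cut into the active form. IL-1α and IL-1β bind the receptor encoded by *IL1R1*, which recruits the accessory protein encoded by *IL1RAP* and signals through MyD88 to NF-κB. The product of *IL1RN* blocks that receptor, and the product of *IL1R2* is a decoy that binds the ligand without a signal. IL-33 is sensed through the product of *IL1RL1*, and IL-18 through that of *IL18R1*. In injured muscle these cytokines are known chiefly as products of infiltrating immune cells and of stressed stromal and muscle cells.

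The probes are oligonucleotides of 60 bases, and their positions are given on EquCab1 as the files state them. The files give no exon or UTR for a probe. The *IL18* probe (A_69_P000751, NM_001082512) lies on the minus strand at chr7:17314944-17315003. It is shown because it carried the 1 call among the 27 probes.
*IL18*, A_69_P000751: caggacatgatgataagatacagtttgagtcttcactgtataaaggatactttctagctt

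The 3 *IL33* probes (ENSECAT00000010878, plus strand) follow each other along the transcript. They are shown because neighbours share bases and yet only the first was bright enough to test. The first spans chr23:17759822-17761276, which is 1455 bases of genome for 60 bases of probe, so it joins separate stretches of the genome. The second lies at chr23:17761257-17761316 and the third at chr23:17761298-17761357. Capitals mark the 20 and 19 bases that neighbouring probes share.
*IL33*, A_69_P026988: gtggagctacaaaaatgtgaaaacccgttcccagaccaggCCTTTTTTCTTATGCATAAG
*IL33*, A_69_P026987: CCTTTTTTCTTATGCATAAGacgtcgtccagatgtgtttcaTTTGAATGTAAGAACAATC
*IL33*, A_69_P026986: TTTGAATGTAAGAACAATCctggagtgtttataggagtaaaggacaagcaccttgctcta

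The 3 *IL1A* probes (NM_001082500, minus strand) tile chr15:12273976-12274095 in steps of 30 bases, and each neighbouring pair shares 30 bases. The shared stretches are shown, all in capitals, because the ratios of these probes were the highest of the family and the overlap lets the probes be compared.
*IL1A*, A_69_P000083 and A_69_P000082: TCTACTCACTTGTGAAGTGTTGACAGTCTG
*IL1A*, A_69_P000082 and A_69_P000081: TATGTACCATGTACATGAAGGAGTCGAATC

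Of the 10 *IL1RN* probes (NM_001082525, plus strand), 9 start at bases 305 to 309 of the transcript and each spans 1203 bases of genome. They come in 2 versions, with 5 and 4 probes, and 1 pair that starts at the same base is shown because it differs at 2 positions, in capitals. Counted from 1 at the 5′ end, the first probe against the second reads A12T and A13T, and both lie at chr15:12624278-12625480.
*IL1RN*, A_69_P004857: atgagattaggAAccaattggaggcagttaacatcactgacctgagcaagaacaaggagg
*IL1RN*, A_69_P004882: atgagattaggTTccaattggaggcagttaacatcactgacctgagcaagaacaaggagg

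The middle of the 3 *IL1RAP* probes (ENSECAT00000005719, plus strand, chr19:24181411-24181470) is shown because it held 4 of the 5 *IL1RAP* readings that were well above background. Capitals mark the 30 bases shared with the probe before it, and the 30 bases in lower case are shared with the probe after it.
*IL1RAP*, A_69_P030177: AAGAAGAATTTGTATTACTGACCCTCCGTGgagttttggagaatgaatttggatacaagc

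In each channel, between 55.2% and 61.8% of probes were well above background, which is the scanner software's mark for a spot clearly brighter than its surroundings. No spot was saturated, and the software had marked 13 to 35 spots per array as uneven or as outliers, none of them in the family. A probe was tested when at least 1 channel was well above background on all 4 arrays, and it was called at an adjusted p of at most 0.05 with a fold change (FC) of at least 1.3. Muscle cell markers were well above background in both channels on every array for 7 of 7 genes on the array, and 5 of them were called lower with HMB, with a summed signal of 166000 to 187000 in the control channel and 63200 to 101000 in the HMB channel. For fibroblast markers this held for 4 of 4 genes, all called higher, with sums of 58100 to 71900 and 91700 to 133000. In the myeloid list of 7 genes only *CD14* and *CD68* were well above background on all arrays, with sums of 3690 to 4450 and 4170 to 6220, and *CD68* was called higher, whereas *ITGAM*, *AIF1*, *CD86* and *MRC1* were never above background. No marker of endothelium (5 genes) or epithelium (4 genes) was above background on all arrays. The T and NK cell markers *CD2*, *CD3E*, *CD4* and *CD8A* and the mast cell marker *FCER1A* never were. In the same 2 lists *CD3D* and *KIT* were above background in both channels on all arrays. They were not called (mean log2 ratio −0.04 and 0.34). *NKG7* was called higher and *HDC* lower. Signal was low in both lists (sums of 136 to 182 and of 67.5 to 91.0 over both channels). The part of these cell types in the results below was not tested, and in such bulk samples fewer cells of a type and less RNA per cell cannot be told apart.

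The family was dim on these arrays. Only 2 of its 27 probes were tested, 1 for *IL18* and 1 for *IL33*, against 24669 of the 43603 probes on the array. Of the tested probes of the whole array 28.6% were called (12.1% in the higher and 16.4% in the lower direction). In comparison, 1 of the 2 tested family probes, that of *IL18*, was called, in the lower direction. A probe read on 4 arrays in 2 channels gives 8 readings, and 40 of the 216 readings of the family were well above background. The *IL18* probe held 8 of these 40. Among the other 26 probes, 11 of 104 readings were well above background in the control channel and 21 of 104 in the HMB channel. By another measure, the 95th percentile of the 153 negative control spots, the order was reversed. There 64 of 104 control and 47 of 104 HMB readings were higher.

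**Figure D1:**
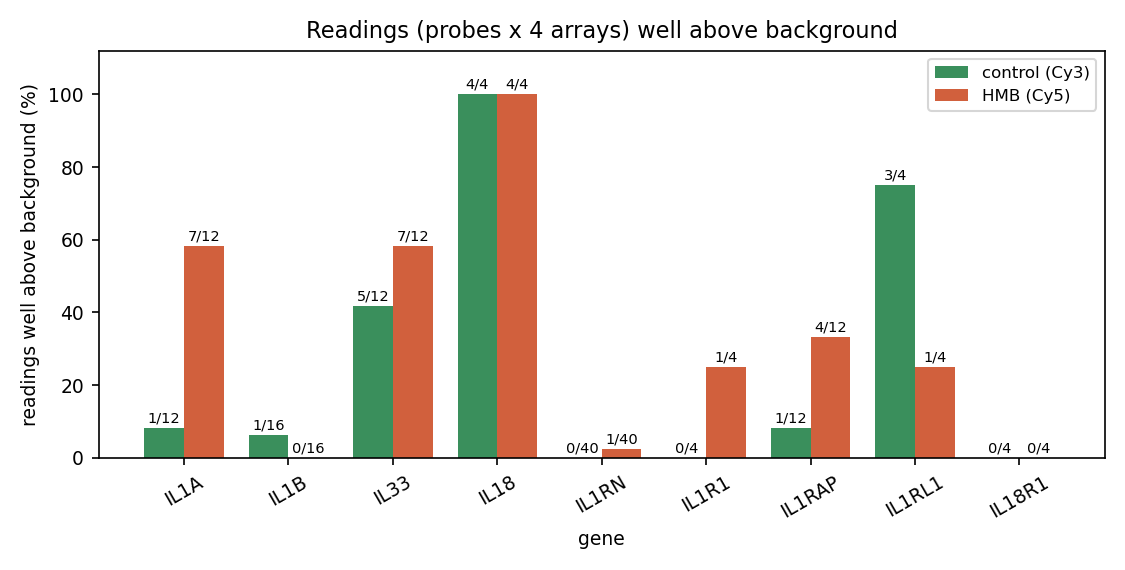
The bars give the percentage of readings (probes times 4 arrays) that were well above background for each gene in the control (Cy3) and HMB (Cy5) channels, with counts above them. Every *IL18* reading was above background, *IL1A* had 1 of 12 in the control and 7 of 12 in the HMB channel, and *IL1RN* had 1 of 80 in both channels together.

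The plot of readings by gene shows where the signal lay. Ligand genes held most of the bright readings, with *IL33* at 5 of 12 and 7 of 12 in the control and HMB channels and *IL1B* at 1 of 16 and 0 of 16. Among the receptors, *IL1RL1* had 3 of 4 and 1 of 4, *IL1RAP* 1 of 12 and 4 of 12, *IL1R1* 0 of 4 and 1 of 4, and *IL18R1* none. Where both channels fell to background the software put a substitute value in each and wrote a ratio of 0. This was so for 33 of the 108 pairs of probe and array, 29 of them in *IL1RN*, so a ratio of 0 there is no measurement of equal RNA.

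Transcripts of *IL18*, the cytokine that drives interferon-γ production by lymphocytes, were lower with HMB. The signal before background subtraction was 1524, 1339, 1486 and 1817 in the control channel of arrays 1 to 4. In the HMB channel it was 606, 695, 736 and 773. Such signals are not on the same scale in both channels. The *IL18R1* probe, with no reading above background, gave 81.9 to 96.6 (control) and 48.8 to 51.0 (HMB). Normalized signals of *IL18* were 1474, 1455, 2004 and 1593 in the control channel and 745, 673, 951 and 764 in the HMB channel. After normalization the log2 ratios were −0.98, −1.11, −1.08 and −1.06, with a mean of −1.06 ± 0.05 (SD, n = 4). The 4 ratios lay close together. The level was thus 2.08-fold lower (95% confidence interval of the log2 ratio −1.20 to −0.91, limma, adjusted p = 5.9e-05). The call held under every alternative tried. Centering on the spike-in RNA moved the median of all tested probes to −0.66, and *IL18* then read −1.64, against −0.98 with median centering.

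**Figure D2:**
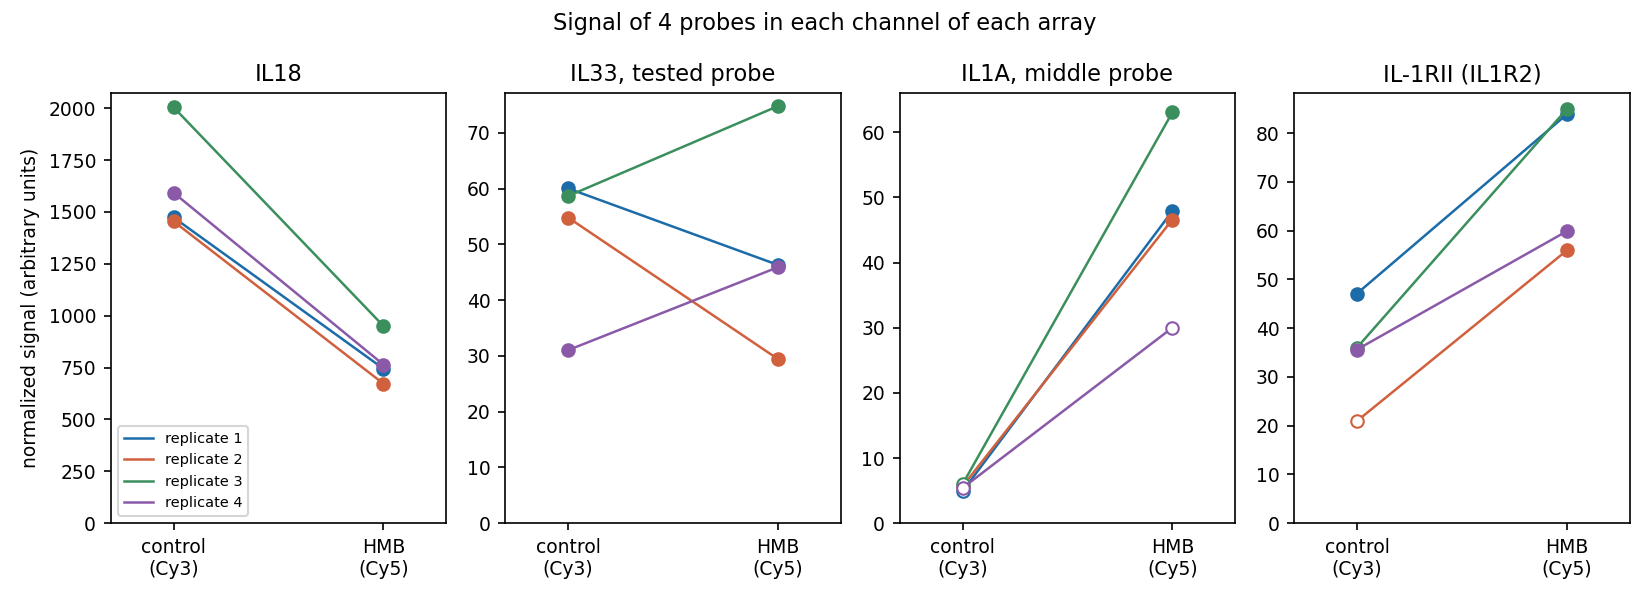
Normalized signal (arbitrary units) of 4 probes in the control (Cy3) and HMB (Cy5) channels, with 1 line per array and filled points for readings well above background. The *IL18* signal fell on all 4 arrays, the tested *IL33* probe moved in both directions, and the middle *IL1A* probe had no control reading above background.

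The plot of normalized signals by channel shows the *IL18* lines falling side by side, and those of *IL33* crossing. The genes whose 4 ratios were nearest to those of *IL18*, by root mean square distance over the 4 arrays among 8392 other tested genes, were *SEMA3E* (0.0506), *QPRT* (0.0659) and *DLL1* (0.0693). *SEMA3E* encodes a semaphorin, and its ratios were −0.91, −1.18, −1.06 and −1.06. *QPRT* encodes an enzyme of NAD synthesis, with ratios of −0.98, −1.19, −1.13 and −0.97. The Notch ligand gene *DLL1* had ratios of −1.01, −1.16, −1.02 and −1.18. Nearness over 4 arrays is a description of these values.

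The nuclear alarm cytokine *IL33* was measurable but had no common direction. The tested probe (A_69_P026988) gave 147, 141, 128 and 133 in the control channel and 86.6, 81.3, 111 and 102 in the HMB channel, all well above background. Its log2 ratios were −0.37, −0.90, 0.35 and 0.56, so arrays 1 and 2 were lower and arrays 3 and 4 higher with HMB. The mean of −0.09 ± 0.67 (SD, n = 4) did not pass the test (confidence interval −0.66 to 0.49, limma, adjusted p = 0.78). The interval does not exclude a change of the size of the FC threshold in either direction. With centering on the spike-in RNA the probe read −0.87 and was called lower, beside a median of −0.66 for all probes.

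The other *IL33* probes, which were not tested, split the arrays in a similar way. Probe A_69_P026987 gave log2 ratios of −0.05, −0.41, 0.95 and 1.57 (mean 0.52 ± 0.91, SD). Probe A_69_P026986 gave −0.12, 0.04, 1.39 and 1.06 (mean 0.59 ± 0.75, SD). In all 3 probes the ratios of arrays 3 and 4 lay above those of arrays 1 and 2. The probes share bases and RNA, so they do not count as separate observations.

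Of *IL1A*, the ligand that damaged cells release, there was signal in the HMB channel and almost none in the control channel. The middle probe (A_69_P000082) gave 68.1, 71.5, 75.5 and 81.0 in the control channel and 80.0, 88.0, 91.5 and 78.4 in the HMB channel, before a background that differed between the channels was removed. It was well above background in the HMB channel on arrays 1 to 3 and in the control channel on none. The log2 ratios of 3.29, 3.04, 3.40 and 2.47 (mean 3.05 ± 0.41, SD, n = 4) set the HMB signal against a substitute value in the control channel, so their size is not a measured fold. Against the lowest signals that stood well above background in the control channel, the level was at least 2.15-fold higher with HMB under the deposited background subtraction. This bound does not hold across settings, since the log2 ratio was 0.80 with no background correction and 0.44 with normexp, both smaller changes with the same sign.

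The first *IL1A* probe along the transcript (A_69_P000083) ran the same way at lower signal. Its log2 ratios were 2.58, 2.27, 2.59 and 1.71 (mean 2.29 ± 0.41, SD), with the HMB channel above background on array 3 only, so no bound is given for it. With no background correction the log2 ratio was 0.74 and with normexp 0.38. The bound for the middle probe set the mean normalized log2 signal of the HMB channel over the 4 arrays against, on each array, the higher of the control reading and the dimmest reading well above background there. Neither probe was tested, since no channel was above background on all 4 arrays.

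The third *IL1A* probe (A_69_P000081) did not repeat this on array 1. Its log2 ratios were 0.39, 3.12, 3.24 and 0.85 (mean 1.90 ± 1.49, SD). On array 1 its spot gave 219 in the control and 189 in the HMB channel. On the other arrays it gave 73.4 to 91.0 and 70.9 to 91.1. The probe that shares 30 bases with it gave 68.1 and 80.0 on array 1, so the high reading was not shared by that probe. The software had not marked the spot. Without array 1 the mean log2 ratio of this probe was 2.40. On arrays 2 to 4 its control channel held a substitute value, so the size of these ratios is not a measured fold. Its HMB channel was well above background on arrays 1 to 3. Over the 4 arrays its log2 ratio was 0.52 with no background correction and 0.29 with normexp.

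The second classical ligand gene, *IL1B* (NM_001082526, minus strand), was near background in both channels. Its 4 probes lie within chr15:12329658-12329836, and their signals ran from 79.1 to 119 in the control channel and from 48.3 to 68.1 in the HMB channel. Only 1 of 32 readings was well above background. Mean log2 ratios were −0.51 ± 0.38, −0.91 ± 0.38, −0.58 ± 0.52 and −0.38 ± 0.71 (SD, n = 4) for probes A_69_P000091, A_69_P000092, A_69_P006391 and A_69_P006392. No array gave a ratio above 0 on the first 3 of them, and array 3 gave 0.57 on the last. Against the 95th percentile of the 153 negative control spots, all 16 control readings of *IL1B* were higher and 4 of 16 HMB readings were. None of the 4 probes was tested, and with normexp background correction their means lay between −0.11 and 0.01.

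**Figure D3:**
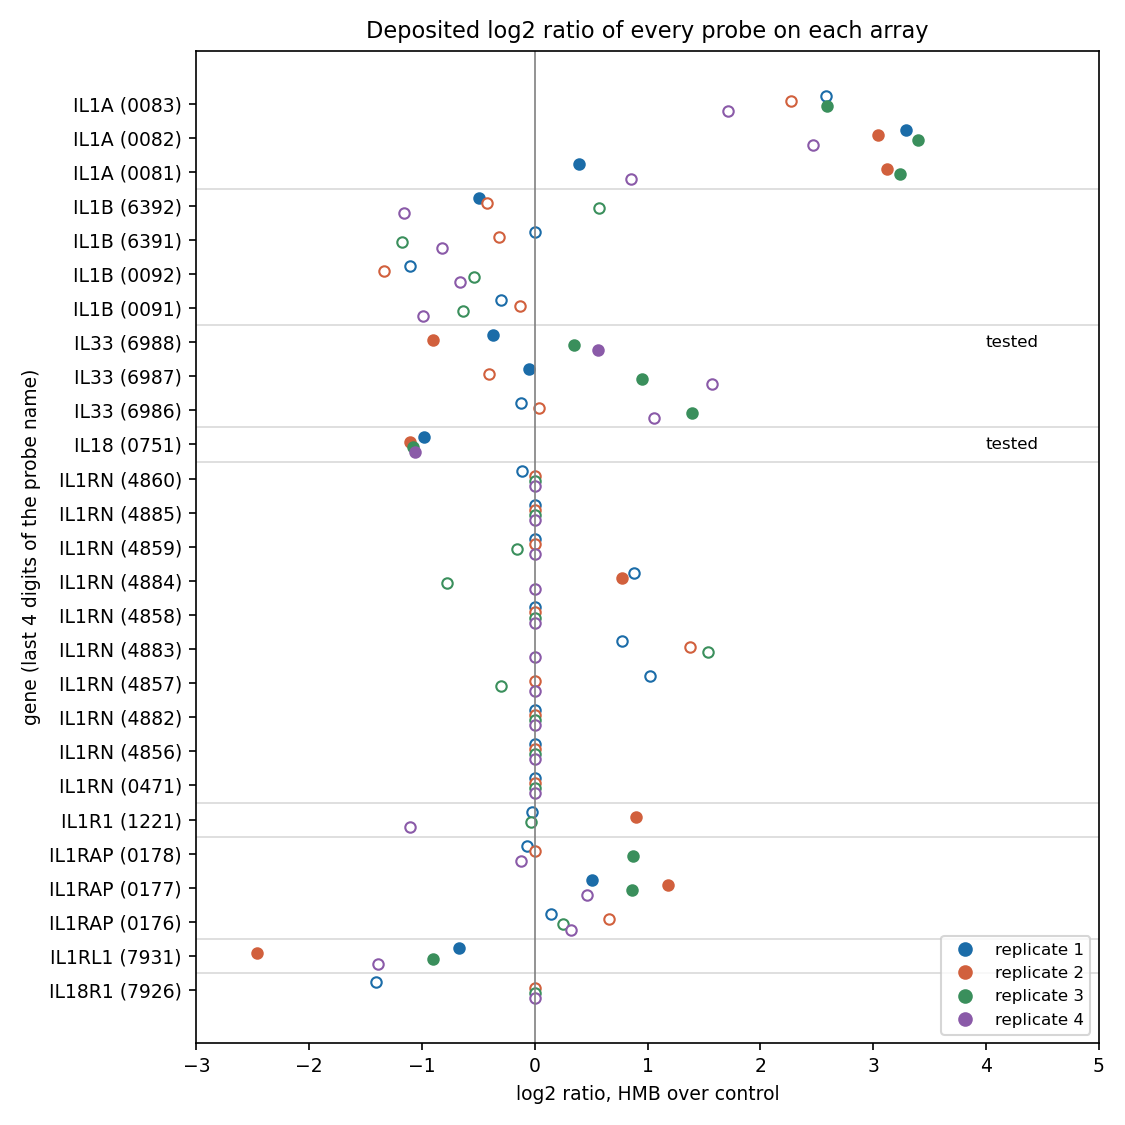
Deposited log2 ratio (HMB over control) of each of the 27 probes on each array, with filled points where at least 1 channel was well above background. The 4 *IL18* points lie together near −1, the *IL1A* points lie to the right of 0, and most *IL1RN* points lie exactly on 0.

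The plot of ratios by probe shows how few of the points away from 0 were filled. For *IL1RN*, the gene of the receptor antagonist, 1 of 80 readings was well above background. Of its 40 ratios 30 were exactly 0, and the probe means ran from −0.04 to 0.92. The highest, 0.92 ± 0.70 (SD, n = 4) for A_69_P004883, came from log2 ratios of 0.77, 1.38, 1.54 and 0, with a substitute value in the control channel on every array. Its counterpart of the other version that starts at the same base, A_69_P004858, read 0 on all 4 arrays. The 4 such pairs differ at 2 positions each, and the single reading well above background was of A_69_P004884 in the HMB channel of array 2. Against the 95th percentile of the negative control spots, 14 of 40 control and 7 of 40 HMB readings of *IL1RN* were higher.

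Among the receptors, *IL1RL1*, which encodes the IL-33 receptor ST2, had the most control readings above background. Its probe (A_69_P057931, ENSECAT00000009580, chr15:3853089-3853148, minus strand) gave 107, 115, 115 and 114 in the control channel and 63.3, 57.3, 71.1 and 56.9 in the HMB channel. The control channel was well above background on arrays 1 to 3 and the HMB channel on array 3 only. The log2 ratios of −0.67, −2.46, −0.90 and −1.39 (mean −1.35 ± 0.80, SD, n = 4) were all below 0, but the HMB channel held a substitute value on arrays 2 and 4. With normexp the log2 ratio was −0.16 and with no background correction −0.28, both under the FC threshold. The probe missed the filter and was not tested.

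By the software's mark, the accessory receptor gene *IL1RAP* had more readings well above background in the HMB channel. Its middle probe (A_69_P030177) gave log2 ratios of 0.51, 1.18, 0.86 and 0.46 (mean 0.75 ± 0.34, SD, n = 4), with the HMB channel above background on arrays 1 to 3 and the control channel on array 3. The overlapping probe A_69_P030176 gave 0.14, 0.66, 0.25 and 0.32 (mean 0.34 ± 0.23, SD). The third, A_69_P030178, gave −0.07, 0, 0.87 and −0.12 (mean 0.17 ± 0.47, SD). All 4 arrays were above 0 on the first 2 of these probes, and array 3 alone was on the last.

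The signalling receptor gene *IL1R1* (A_69_P001221, NM_001081794, chr15:4024117-4024176, minus strand) had 1 of 8 readings above background. Its log2 ratios of −0.02, 0.90, −0.03 and −1.11 (mean −0.07 ± 0.82, SD, n = 4) went both ways. The IL-18 receptor gene *IL18R1* (A_69_P057926, ENSECAT00000007494, chr15:3808403-3808462, minus strand) had no reading above background, and its ratios were −1.41 on array 1 and 0 on the others. Neither gene could be tested. Against the 95th percentile of the negative control spots, 4 of 4 control and 3 of 4 HMB readings of *IL1R1* were higher, and 1 of 4 and 0 of 4 of *IL18R1*.

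The probe named IL-1RII (A_69_P000011, NM_001081816, chr15:4173797-4173856, minus strand) was outside the choice by symbol but is listed under the decoy receptor gene *IL1R2* through that synonym. It gave 119, 106, 101 and 118 in the control channel and 105, 96.6, 104 and 95.1 in the HMB channel, well above background on 2 and 4 arrays. After background subtraction and normalization these became 47.1, 21.0, 36.0 and 35.6 in the control channel and 83.9, 56.0, 85.0 and 59.9 in the HMB channel. The log2 ratios were 0.83, 1.42, 1.24 and 0.75, all above 0. The mean was 1.06 ± 0.32 (SD, n = 4), and the probe was called (limma, adjusted p = 0.00106). It passed the filter only through the HMB channel, where it was high, and on arrays 2 and 3 the ratio was formed against control readings that were not well above background, so the call is given as a description. The size rested on how background was removed, since the log2 ratio was 0.18 with normexp and 0.37 with no background correction. It was 0.26 with centering on the spike-in RNA. It was not called in any of these 3 settings.

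Without the filter on dim probes, 16.5% of all probes were called (6.58% upward and 9.9% downward), and so were 5 of the 27 family probes, 3 of them higher and 2 lower. These were *IL18*, the *IL1A* probes A_69_P000082 and A_69_P000083 (limma, adjusted p = 0.00642 and 0.00987), the *IL1B* probe A_69_P000092 (0.0418) and the *IL1RAP* probe A_69_P030177 (0.0488). The *IL1B* probe was among them although no channel was above background on any array. For both *IL1A* probes the control channel held a substitute value on every array. Their p-values without the filter therefore hold no measured control RNA or its spread, and these calls are a description. With normexp the log2 ratios of the 4 dim probes shrank to 0.44, 0.38, −0.10 and 0.10, respectively. In that setting the *IL1A* probes were still called, close to the threshold (limma, adjusted p = 0.0493 and 0.0449). The *IL1B* and *IL1RAP* probes were not. The same probes were called with no background correction. For the *IL1RL1* probe the adjusted p without the filter was 0.0838.

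Further members of the family and its pathway were read from lists, with 1 probe per gene, the brightest tested. Over all 8897 tested genes 27.6% were called, 10.5% higher and 17.1% lower, and the median log2 ratio was −0.08. Of 17 relatives listed, 8 were on the array and 1 was tested. This was *IL18BP*, which encodes a soluble protein that binds and neutralizes IL-18. Its log2 ratios were 0.36, 1.09, 0.69 and 0.61. All 4 arrays were above 0, and the mean of 0.69 ± 0.30 (SD, n = 4) was called higher (limma, adjusted p = 0.00473), opposite in sign to *IL18*. With centering on the spike-in RNA *IL18BP* read 0.08 and was not called.

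Genes for the maturation and release of the cytokines were called on 4 of the 5 that were tested (11 on the array), 3 higher and 1 lower, with a median of 0.48. Both caspase genes that were tested rose, *CASP8* by 1.37 ± 0.28 and *CASP4* by 1.29 ± 0.07 (log2 ratio, SD, n = 4, limma, adjusted p = 0.000253 and 2.92e-05). *CASP4* encodes a caspase of the non-canonical inflammasome. With normexp *CASP8* read 0.70 and *CASP4* 1.23. *CASP1*, *NLRP3* and *GSDMD* of the same list were not among the genes tested under their symbols. *PYCARD*, the gene of the inflammasome adaptor ASC, rose by 0.48 ± 0.12. *SERPINB1*, which encodes a protease inhibitor of leukocytes, fell by 0.50 ± 0.24 on the log2 scale. The inflammasome kinase gene *NEK7*, at −0.24 ± 0.20, did not pass the test. The median turned to −0.10 with centering on the spike-in RNA.

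In receptor signalling, 13 of 15 genes on the array were tested, 3 were called higher and 2 lower, and the median was −0.05. *MYD88*, the adaptor gene of IL-1 and IL-18 receptors, rose by 1.55 ± 0.21 (SD, n = 4, 2.92-fold), and all 7 of its tested probes were called. *IRAK4*, the kinase gene next to it in the pathway, rose by 0.81 ± 0.14, but read 0.25 and was not called with normexp, where 2 genes of the list were called higher. *MAP3K7*, which encodes the kinase TAK1, and *MAP3K3* fell by 0.66 ± 0.16 and 0.65 ± 0.29, and for the latter the HMB channel was above background on 1 array. *MAP3K3* read −0.11 with normexp, under the FC threshold. The remaining called gene was *PELI1*, a ubiquitin ligase gene at 0.57 ± 0.17 with 2 of 3 tested probes called, which is named here after its values were seen. The 8 genes that were not called had means between −0.36 and 0.19. With centering on the spike-in RNA 1 gene was called higher and 10 lower.

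Genes known to be induced by IL-1 in connective tissue or muscle cells moved in 1 direction. Of 32 listed, 25 were on the array and 18 were tested, and 17 were called higher and 0 lower, with a median log2 ratio of 3.90. The list was chosen with earlier results of these data known. It holds genes that the paper reports as rising, such as *IL6*, *CCL2*, *SAA1* and *SOD2*. The count is therefore a description and not a test. The chemokine gene *CCL20* had log2 ratios of 6.93, 6.90, 6.74 and 6.49 and a mean of 6.77 ± 0.20 (SD, n = 4). The neutrophil chemokine genes *CXCL1* and *CXCL6* rose by 6.39 ± 0.51 and 6.04 ± 0.52, each with the control channel above background on 3 arrays. The adhesion molecule gene *VCAM1* rose by 5.51 ± 0.18. The exception was *NOS2*, the inducible nitric oxide synthase gene, at 0.14 ± 0.32 with 0 of 5 tested probes called. Other cytokines and microbial products induce these genes too, so the list does not identify IL-1 as the signal. Some of these genes passed the filter only through the HMB channel, where they were high. With both channels required above background on all arrays, 13 genes were tested and 12 were called higher, with a median of 3.62. The median was 3.39 with centering on the spike-in RNA and 2.91 with normexp, with 15 and 16 genes called higher.

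**Figure D4:**
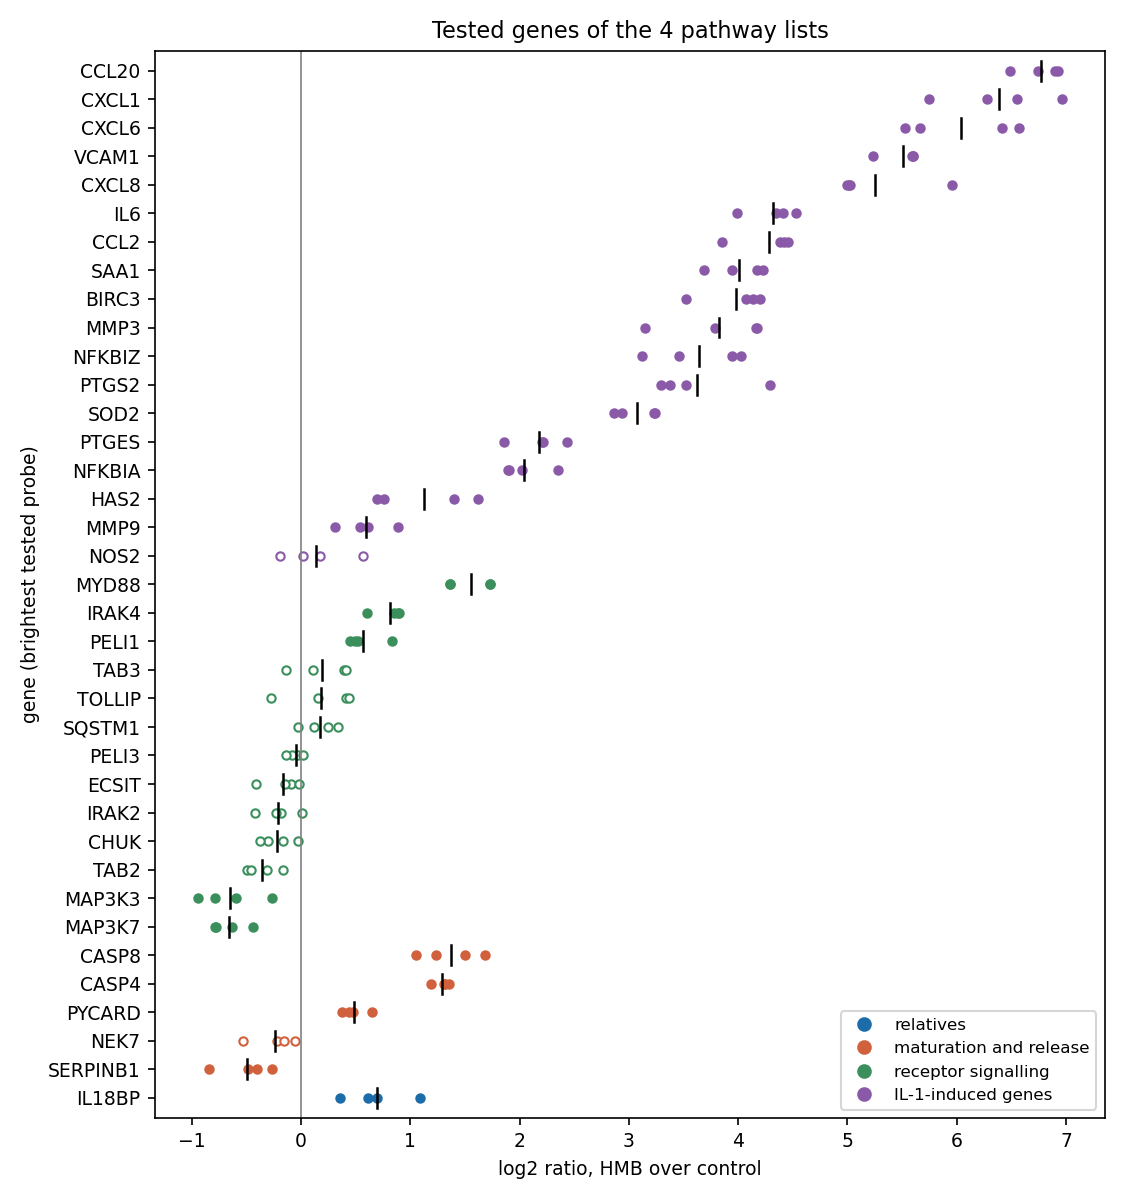
Log2 ratios (HMB over control) on the 4 arrays for each tested gene of the 4 lists, with the mean as a black line, filled points for called genes and open points for the rest. The IL-1-induced genes reach means from 0.14 to 6.77, whereas those of receptor signalling lie between −0.66 and 1.55.

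The plot of list genes by array places the called genes beside each other. The points of the strongest IL-1-induced genes lie well apart from 0 on every array, those of *IL18BP* lie above 0, and those of the genes not called lie around 0 or close to it.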

How the data were processed

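Per the file headers, the scanner files of the authors were written by Agilent Feature Extraction 10.10.1.1. They give for each spot and channel the intensity as scanned, the intensity less background, and a normalized intensity (a linear step and lowess inside each array). The deposited log10 ratios are normalized Cy5 (HMB) over Cy3 (control) signals, with substitute values for signals at background. A deposited series table repeats these ratios (largest difference 0). The log2 values were computed here from the deposited log10 ratios times 3.3219. Array columns not matched to a sample numbered 0.

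Ratios were tested in R 4.3.3 with limma 3.58.1 (intercept and empirical Bayes moderation) and the data.table package (1.17.8), with the Benjamini-Hochberg correction over 24669 probes, and figures were drawn with matplotlib 3.10.9. Control spots (1264 positive, 153 negative) and marked spots were left out. A tested probe had a ratio on at least 3 of 4 arrays and at least 1 channel well above background on all of them. The call thresholds were those of the study's methods, and each array counted as 1 replicate. All arrays lay on 1 slide, so no batch could be examined. The number of arrays limits the precision.

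Symbols came unchanged from the files for 27415 probes. For 231 more the symbol was replaced through RefSeq synonyms, and a further 435 probes were named by accession, which left 15522 without a symbol. RefSeq names came from a table of another assembly, of which no coordinate is used. All probes of the members are described, as are in each list up to 4 called genes with the largest change, and the 3 genes nearest to a called member. The members and the lists were chosen with earlier results of these data known. The lists were relatives of the family, maturation and release, receptor signalling, IL-1-induced genes and markers of 7 cell types.

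Alternatives for the test were treat, a trended robust moderation, and the methods' t-test. The others were normexp (offset 50) or no background correction with loess, median or spike-in centering without lowess, scaling between arrays, a GC correction, no filter or a filter on both channels, marked spots kept, the authors' table, the mean over probes of a gene, and each replicate left out. On simulated data with 24669 probes limma recovered 84% of log2 changes of 1 and 98% of log2 changes of 2, with 6 false calls, and the methods' t-test recovered 32% and 58% with 0. Few of the simulated probes were given a change, and the noise was normal and independent between arrays and probes. In the data 28.6% of tested probes were called, so these rates need not hold there.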

Additional observations from a re-analysis of the deposited data

Results flagged for a closer look

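For each of 28 probes (the 27 of the family and IL-1RII), 3 sets of 4 values were examined for an array far from the other 3: the log2 ratios, and the control and HMB signals on the log2 scale. The gap of the outermost array to its nearest neighbour, as a share of the whole range, passed Dixon's 95% limit in 10 of the 84 sets. The limit flags about 1 in 20 independent sets. These sets are not independent, since the ratios derive from the signals and neighbouring probes share bases. In 5 of them all ratios were 0, so they could not be flagged. The count is therefore not compared with chance. For the log2 ratio the share was 1 for the *IL18R1* probe A_69_P057926 and for the *IL1RN* probes A_69_P004859 and A_69_P004860, where in each case 3 of the 4 arrays read exactly 0 because of substitute values. It was 0.879 for the *IL1RAP* probe A_69_P030178, where array 3 lay above the others. For the control signal it was 0.842 for the *IL1A* probe A_69_P000083 (array 4 high), 0.831 for the *IL1RL1* probe A_69_P057931 (array 1 low), 0.838 for the *IL1RN* probe A_69_P004860 (array 4 high) and 0.834 for the *IL1RN* probe A_69_P004885 (array 1 low). For the HMB signal it was 0.843 for the *IL1B* probe A_69_P006391 (array 1 low) and 0.855 for the *IL1RN* probe A_69_P004884 (array 2 high). All 10 sets belonged to probes that were not tested. The *IL1A* spot A_69_P000081, bright in both channels on array 1, had a share of 0.804 in the control channel on the log2 scale, under the limit, and of 0.880 on the linear scale, above it. In the HMB channel its shares were 0.744 and 0.828 on these scales, both under the limit.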

How the results depend on the processing

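The *IL18* call was kept, with the same sign, under all 18 alternatives, with log2 ratios from −1.64 (spike-in centering) to −0.87 (normexp) and from −1.08 to −1.04 with 1 array left out. The tested *IL33* probe was called only with spike-in centering (−0.87), and ranged from −0.31 to 0.18 with 1 array left out. IL-1RII was not called with normexp (0.18), with no background correction (0.37) or with spike-in centering (0.26), and ranged from 0.94 to 1.16 with 1 array left out. Of the tested probes, 7046 were called, against 2822 with treat, 3538 with normexp, 4439 with no background correction and 20081 with spike-in centering, where 5.01% of calls were higher. That share was 42.5% in the reported setting, 54.6% with treat, 55.0% with normexp, 60.1% with no background correction and 52.3% with median centering. Leaving out 1 array gave 6637 to 7151 calls, 2 tested and 1 called probe of the family. Without the filter all 27 family probes were tested and 5 were called, and with spike-in centering 2 were called. Among relatives, spike-in centering called 0 higher, and no filter called 2 higher and 3 lower (1 and 0 with 1 array left out). In maturation and release, spike-in centering called 2 lower and no filter 0 (3 higher and 1 lower with 1 array left out). In receptor signalling, spike-in centering called 1 higher and 10 lower, normexp called 2 higher and 1 lower, and the filter on both channels called 1 lower. With 1 array left out 3 were called higher and 2 to 3 lower. Among the IL-1-induced genes spike-in centering called 1 lower (17 higher and 0 lower with 1 array left out). The cause of these changes was not tested. The family's limit was signal over background. Of the 25 family probes that were not tested, 21 had a substitute value in at least 1 reading and 4 had none. In 5 of the 25 all ratios were 0, and in the other 20 normexp or no background correction moved 9 by more than their SD between arrays. The test of ratios formed within each array is itself the paired comparison of the groups, and with 1 group of ratios no further replicate block could be fitted.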
